A study of Mus musculus with 79 samples.

Results

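Insulin-like growth factor 1 (Igf1), its receptor Igf1r, the binding proteins Igfbp2, Igfbp3, Igfbp4 and Igfbp5, and the feedback inhibitor Socs2 were followed by name through RNA of sorted nuclei from mouse visual cortex. These are 7 of the 55335 genes counted. They were picked by name and role, with earlier results of these data known. IGF-1 is a secreted growth factor that binds the IGF-1 receptor, a tyrosine kinase whose signal runs through PI3 kinase, Akt and the MAP kinases. Secreted IGF-binding proteins hold the ligand and limit or prolong its access to the receptor, and proteases release it. In the visual cortex, interneurons that express vasoactive intestinal peptide (VIP) are known as a source of activity-dependent Igf1.

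The series comprised 79 libraries and asked how far neuronal activity that remains in the dark affects expression, by silencing cortical neurons with Kir2.1. All mice were INTACT wt/ki and VIP Cre wt/ki, with 1 knock-in allele of each. VIP Cre drives recombination in VIP cells, and INTACT then tags their nuclear envelope for sorting. All were housed in the dark, labelled as 10 days. An adeno-associated virus (AAV) had been injected into the visual cortex at postnatal day 55 to 60, 3 days before the dark period, in all mice but those labelled without AAV. The vector used the neuronal Syn1 promoter (AAV-Syn1) to express Kir2.1, a potassium channel of the inward rectifier family whose expression lowers excitability, or Kir2.1(Mutant). Both forms were joined through 2a to mScarlet-KASH, a red protein with a nuclear envelope anchor, which marks transduced nuclei. The labels do not say what the mutation does. Each library held 50 to 100 nuclei, and no label states how many animals they came from.

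The Kir2.1 vector gave 10 libraries of transduced VIP nuclei, 8 of transduced neurons, 10 of non-transduced VIP nuclei and 10 of all non-transduced nuclei. The mutant gave 9, 8, 9 and 9 libraries of the same kinds, and mice without AAV gave 3 of VIP nuclei and 3 of all nuclei. Total counts ran from 3219899 to 9267246 per library. Kcnj2, which encodes Kir2.1, averaged 588 ± 224 CPM (counts per 1000000 counts) in Kir2.1-transduced and 766 ± 307 CPM in mutant-transduced VIP nuclei, against 15.3 ± 8.37 and 22.8 ± 8.06 CPM in the non-transduced VIP nuclei of the same vectors (SD). Among all non-transduced nuclei of the Kir2.1 vector it was at 152 CPM in library 1 and 69.0 CPM in library 2, and at 7.61 to 26.8 CPM in the other 8. The mutant's all non-transduced nuclei had 2.64 to 22.3 CPM and all nuclei without AAV 3.86 to 7.42 CPM, and the lowest transduced library of any kind had 141 CPM. Libraries 1 and 2 thus held Kcnj2 RNA above the other libraries sorted as non-transduced, and contrasts that use them were also run without both. Slc17a7, the vesicular glutamate transporter of excitatory cells, was at 6.24 ± 4.56 and 3.78 ± 2.85 CPM in VIP nuclei transduced with Kir2.1 and with the mutant, against 68.4 ± 26.9 and 65.3 ± 16.7 CPM in the transduced neurons of the same vectors. The gap was smaller for the sum of 10 excitatory markers, Slc17a7 among them. Its median was 1006 CPM (Kir2.1) and 588 CPM (mutant) in transduced VIP nuclei. In transduced neurons it was 1907 CPM (Kir2.1) and 1956 CPM (mutant). In 32 of the 79 libraries the labelled sex went against the RNA (Xist against Y-linked genes). Libraries sharing a vector and number gave 1 sex by RNA in all 22 such sets, so sex by RNA was added as a covariate and the 47 agreeing libraries were also tested alone. In 4 VIP libraries the profile stood apart from that of their group: Kir2.1-transduced library 1, mutant-transduced library 1, Kir2.1 non-transduced library 9 and mutant non-transduced library 1.

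Of the members that changed between the vectors, Igf1 and Igfbp5 had a promoter sequence at hand, and both are shown for their contrast in direction. Each run is the 250 bases before the start site in RefSeq's GRCm38.p6 annotation, read along the gene's own strand. The Igf1 run is chr10:87860861-87861110 on the plus strand and the Igfbp5 run is chr1:72874866-72875115 on the minus strand. The Igf1 start lies inside the longer gene span that GENCODE gives. So does the Igfbp5 start, as GENCODE's span for that gene runs to 72874884. The last bases of the Igfbp5 run thus fall within that span. Capitals are kept for matches to the motifs named next, and there are none.
Igf1: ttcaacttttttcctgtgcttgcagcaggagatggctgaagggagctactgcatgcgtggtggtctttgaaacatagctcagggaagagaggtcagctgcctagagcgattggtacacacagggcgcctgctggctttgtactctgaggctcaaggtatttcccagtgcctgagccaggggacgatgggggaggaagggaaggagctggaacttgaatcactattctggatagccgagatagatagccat
Igfbp5: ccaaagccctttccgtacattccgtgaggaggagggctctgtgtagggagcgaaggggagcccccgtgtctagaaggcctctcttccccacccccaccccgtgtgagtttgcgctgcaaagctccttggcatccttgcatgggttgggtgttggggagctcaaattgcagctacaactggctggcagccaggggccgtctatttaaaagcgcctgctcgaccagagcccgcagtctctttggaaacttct

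Neither run held the cyclic AMP response element TGACGTCA, its core TGACG, the AP-1 motif TGACTCA or the STAT motif TTCNNNGAA on either strand. Among 32851 RefSeq promoters of the same length, 1.55%, 17.8%, 4.46% and 7.02% held these motifs in that order (the core lies within the full element). The absence says only that these letters are not in these windows. The bases were 52.8% G or C for Igf1 and 58.8% for Igfbp5.

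Igf1 (ENSMUSG00000020053, GRCm38 chromosome 10, 87858265 to 87937042, plus strand) was a gene of VIP nuclei in these libraries. Its lowest VIP library of any group had 249.98 CPM, and its highest library outside VIP nuclei had 56.3 CPM. Transduced VIP nuclei averaged 341 ± 83.2 CPM with Kir2.1 (n = 10) and 546 ± 81.7 CPM with the mutant (n = 9). Non-transduced VIP nuclei averaged 465 ± 92.7 CPM with Kir2.1 (n = 10), 497 ± 66.2 CPM with the mutant (n = 9) and 411 ± 6.65 CPM without AAV (n = 3). Kir2.1-transduced nuclei had the lowest mean of the 5 VIP groups and mutant-transduced nuclei the highest, and the ranges of groups next to each other in level overlapped. Transduced neurons averaged 5.11 ± 4.43 CPM with Kir2.1 and 8.63 ± 6.03 CPM with the mutant (n = 8 each). All nuclei averaged 7.68 ± 4.67 CPM with Kir2.1 (n = 10), 11.5 ± 17.2 with the mutant (n = 9) and 6.99 ± 7.91 without AAV (n = 3). These 5 groups also overlapped one another. In nuclei pooled by sort, fewer cells of a type and less RNA per cell cannot be told apart.

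**Figure D1:**
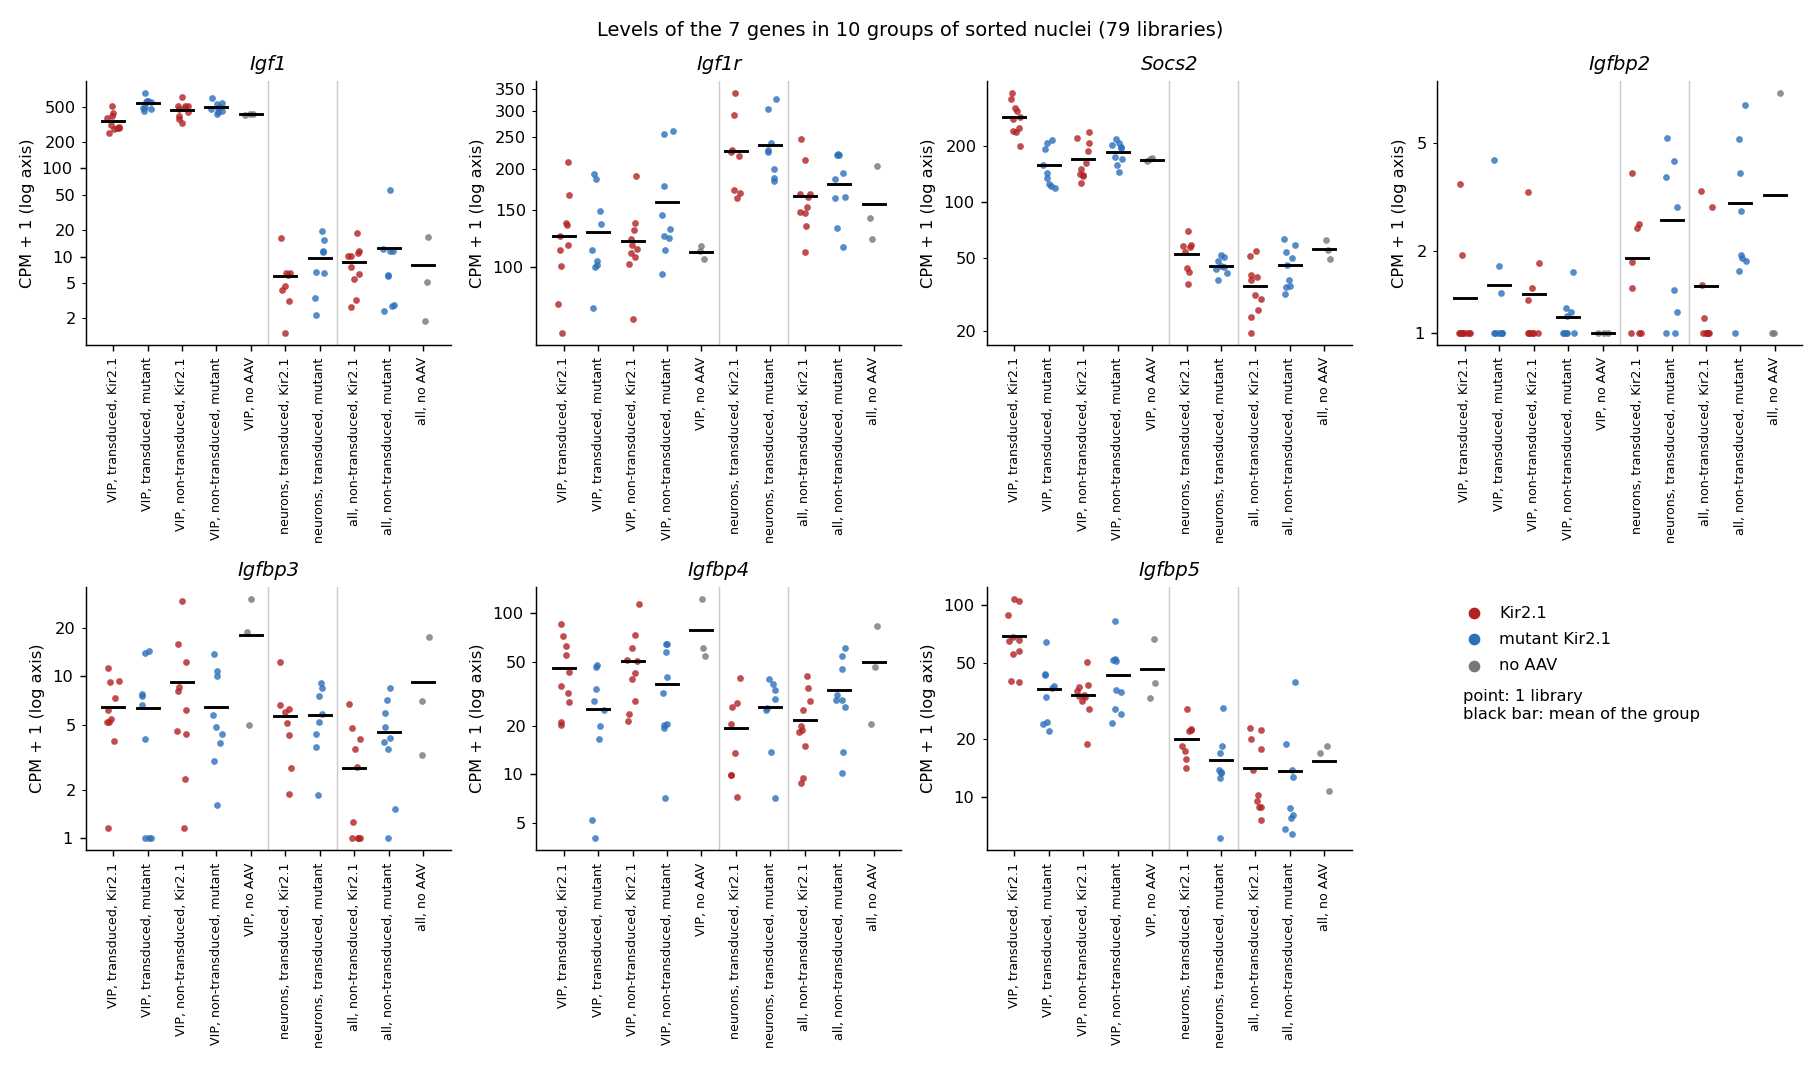
Level of each of the 7 genes (CPM plus 1, log axis) in every library, by group; points are libraries, black bars are group means, red is Kir2.1, blue the mutant and grey no AAV, with VIP groups left of the first grey line. Igf1 separates every VIP library (249.98 CPM and above) from every other library (56.3 CPM and below), and Socs2 and Igfbp5 are highest on average in Kir2.1-transduced VIP nuclei.

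The receptor was highest in neurons and the feedback inhibitor in VIP nuclei. Igf1r averaged 225 ± 63.0 CPM in Kir2.1-transduced and 236 ± 53.1 CPM in mutant-transduced neurons. All nuclei averaged 164 ± 38.7 CPM with Kir2.1, 179 ± 39.3 with the mutant and 155 ± 43.0 without AAV. VIP nuclei averaged 123 ± 42.2 CPM (Kir2.1, transduced), 128 ± 40.3 (mutant, transduced), 119 ± 30.6 (Kir2.1, non-transduced), 157 ± 60.8 (mutant, non-transduced) and 110 ± 4.99 (no AAV). Neurons were highest and VIP nuclei mostly lowest, and the ranges of groups next to each other in level overlapped.

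Socs2 had every VIP group above every other group. It averaged 287 ± 57.9 CPM in Kir2.1-transduced and 157 ± 38.3 CPM in mutant-transduced VIP nuclei, and 171 ± 39.7 (Kir2.1), 185 ± 24.9 (mutant) and 168 ± 3.28 CPM (no AAV) in non-transduced ones. The other nuclei averaged 51.2 ± 10.98 CPM (neurons, Kir2.1), 44.2 ± 4.72 (neurons, mutant), 34.3 ± 11.3 (all nuclei, Kir2.1), 44.5 ± 11.3 (all nuclei, mutant) and 54.5 ± 6.78 CPM (all nuclei, no AAV). Groups next to each other in level overlapped except across the step between VIP and other nuclei. Igfbp5 averaged 68.6 ± 24.2 CPM in Kir2.1-transduced VIP nuclei, 33.2 ± 7.96 to 45.3 ± 17.9 CPM in the other 4 VIP groups and 12.7 ± 10.6 to 19.2 ± 4.64 CPM in the 5 groups of other nuclei, with overlap between groups next to each other in level.

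Igfbp4 averaged 44.4 ± 22.4 CPM (Kir2.1) and 24.3 ± 15.8 CPM (mutant) in transduced VIP nuclei, and 49.4 ± 27.7 (Kir2.1), 35.1 ± 21.5 (mutant) and 77.9 ± 37.8 CPM (no AAV) in non-transduced ones. Neurons averaged 18.3 ± 11.1 CPM with Kir2.1 and 25.2 ± 11.03 CPM with the mutant, and all nuclei 20.9 ± 10.3 (Kir2.1), 32.3 ± 17.1 (mutant) and 48.9 ± 31.6 CPM (no AAV). In both VIP and all nuclei the mean was highest without AAV, over wide ranges that overlapped. All 6 libraries without AAV were male by label and by RNA, whereas the injected groups held both sexes. Igfbp3 lay at group means of 1.72 to 16.99 CPM and Igfbp2 at 0 to 2.22 CPM, and Igfbp2 had a count in 37 of 79 libraries.

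VIP nuclei were richer than other nuclei in Igf1, Socs2 and Igfbp5 and poorer in the receptor. In the non-transduced libraries, 6 of the 7 members differed between VIP nuclei and all nuclei (edgeR quasi-likelihood test, adjusted p below 0.05 over all genes), where 27.4% of all 22855 genes tested did. Igf1 was 54.0-fold higher in VIP nuclei (log2 fold change 5.75 ± 0.44 SE, edgeR adjusted p = 1.86e-15). Socs2 was 4.05-fold higher (2.02 ± 0.14, edgeR adjusted p = 2.79e-17) and Igfbp5 3.02-fold higher (1.59 ± 0.24, edgeR adjusted p = 6.7e-07). Igf1r was 1.29-fold lower (-0.36 ± 0.13, edgeR adjusted p = 0.0346). Igfbp4 was 1.63-fold higher (0.70 ± 0.27, edgeR adjusted p = 0.0475), and Igfbp2 was lower (edgeR adjusted p = 0.0149), at group means of 0 to 0.390 CPM in VIP nuclei and 0.487 to 2.22 CPM in all nuclei. No fold is given for Igfbp2 because all 3 VIP libraries without AAV had no count. Igfbp3 had a log2 fold change of 1.33 ± 0.59 and did not pass (edgeR adjusted p = 0.0926). The members' median log2 fold change was 1.33, against -0.05 over all genes tested. The Igfbp4 call was lost with RLE size factors (edgeR adjusted p = 0.0576), with sex by RNA as a covariate (0.0563) and in 1 fit of all 79 libraries (0.0623). Likewise lost were the Igf1r call without the filter on low counts (0.0656), and the Igfbp2 call with the replicate number as a block (0.172). The same 6 members passed without the 2 all-nuclei libraries high in Kcnj2.

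The same contrast among transduced nuclei gave a like picture in each vector. With the mutant, VIP nuclei exceeded transduced neurons 62.1-fold in Igf1 (log2 fold change 5.96 ± 0.41 SE), 3.44-fold in Socs2 (1.78 ± 0.16) and 2.40-fold in Igfbp5 (1.27 ± 0.26), and had 1.91-fold less Igf1r (-0.93 ± 0.20). The largest edgeR adjusted p of these 4 was 0.000411, for Igf1r, and 17.9% of all genes passed. With Kir2.1 the folds were 68.0 for Igf1 (6.09 ± 0.42), 5.57 for Socs2 (2.48 ± 0.16), 3.56 for Igfbp5 (1.83 ± 0.26) and 2.44 for Igfbp4 (1.28 ± 0.41, edgeR adjusted p = 0.0204), and Igf1r was 1.84-fold lower (-0.88 ± 0.19, edgeR adjusted p = 0.000545), where 18.9% of all genes passed. Igfbp2 fell short of the filter on low counts in these fits. None of the 6 tested members passed the test of whether the vector effect differed between the populations (edgeR, 2 members at an unadjusted p below 0.05, 0 members with DESeq2), where 0.316% of all genes did. Socs2 came nearest, with a log2 difference of 0.69 ± 0.22 (edgeR adjusted p = 0.21).

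Kir2.1 went with less Igf1 and more Socs2 and Igfbp5 in transduced VIP nuclei. These 3 of the 7 members passed between Kir2.1 and the mutant, where 1.39% of the 21207 genes tested did. Igf1 was the member that fell and Socs2 and Igfbp5 were those that rose. The members' median log2 fold change was 0.03, against 0.04 over all genes tested.

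For Igf1 the Kir2.1-transduced VIP libraries had 249.98 CPM at the lowest, 299 at the median and 517 at the highest. Mutant-transduced VIP libraries had 452, 567 and 717 CPM. The groups overlapped through 1 Kir2.1 library: 9 of 10 lay below the lowest mutant library. Igf1 was 1.59-fold lower with Kir2.1 (log2 fold change -0.66 ± 0.13 SE, edgeR adjusted p = 0.00177). Leaving out each library in turn kept the adjusted p between 0.000227 and 0.00661, over log2 fold changes of -0.74 to -0.62. The call was lost in 1 fit of all 79 libraries (-0.68 ± 0.37, edgeR adjusted p = 0.398). That fit takes the spread of Igf1 also from nuclei that barely express it, and the part of this in the loss was not tested. The call was also lost in the libraries with the same sex by label and RNA, 6 with Kir2.1 against 4 with the mutant (-0.63 ± 0.19, edgeR adjusted p = 0.223). In females by RNA the Igf1 means were 323 ± 68.8 CPM with Kir2.1 (n = 6) and 541 ± 47.3 with the mutant (n = 5), and in males the Kir2.1 mean was 369 ± 106 CPM and the mutant mean 551 ± 121 CPM (n = 4 each).

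Igf1 overlaps Igf1os, an antisense transcript on the minus strand, and the transposase-based library kit does not mark strand, so reads from their shared stretch cannot be told apart. Igf1os averaged 68.5 ± 25.1 CPM in Kir2.1-transduced and 86.9 ± 17.2 CPM in mutant-transduced VIP nuclei. Its log2 fold change was -0.33 ± 0.22 and did not pass (edgeR adjusted p = 0.66).

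Socs2 (ENSMUSG00000020027, chromosome 10, 95385362 to 95417180, minus strand) encodes a suppressor of cytokine signalling, best known for limiting growth hormone receptor signals through Stat5. Kir2.1-transduced VIP libraries had 199.6 CPM at the lowest, 284 at the median and 387 at the highest, and mutant-transduced ones had 118, 142 and 214 CPM. All but 1 of the Kir2.1 libraries (9 of 10) lay above every mutant library. Socs2 was 1.85-fold higher with Kir2.1 (log2 fold change 0.89 ± 0.15 SE, edgeR adjusted p = 0.000119). It passed under all 10 other settings and without each of the 19 libraries in turn, at adjusted p-values of at most 0.043 and 0.000707. By RNA sex, Socs2 averaged 299 ± 69.7 CPM with Kir2.1 (n = 6) and 173 ± 44.3 CPM with the mutant (n = 5) in females, and 269 ± 34.8 CPM with Kir2.1 and 136 ± 17.3 CPM with the mutant in males (n = 4 each).

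Igfbp5 (ENSMUSG00000026185, chromosome 1, 72857932 to 72874884, minus strand) encodes a secreted binding protein of IGF-1 and IGF-2. Kir2.1-transduced VIP libraries ran from 38.8 CPM through a median of 64.9 to 107 CPM, and mutant-transduced ones from 21.1 through 36.1 to 63.7 CPM. All 10 Kir2.1 libraries were above the mutant median and 6 of 10 above its highest library. Igfbp5 was 1.93-fold higher with Kir2.1 (log2 fold change 0.95 ± 0.24 SE, edgeR adjusted p = 0.0246). This call was less firm than that of Socs2. It was lost without any 1 of 6 of the 19 libraries: Kir2.1 library 3 (edgeR adjusted p = 0.0712) or 10 (0.0575), or mutant library 1 (0.0514), 3 (0.0613), 4 (0.0628) or 9 (0.0665). It was also lost in 1 fit of all 79 libraries (0.0523) and in the libraries with agreeing sex (0.342), and the log2 fold change stayed between 0.85 and 1.09 without each library.

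The other members gave no call in that comparison. Igf1r (ENSMUSG00000005533, chromosome 7, 67952827 to 68233668, plus strand) had 62.3 to 209 CPM with Kir2.1 (median 119.7) and 74.5 to 192 CPM with the mutant (median 112), and its log2 fold change was -0.04 ± 0.20 (edgeR adjusted p = 0.987). Igfbp4 (ENSMUSG00000017493, chromosome 11, 99041244 to 99054392, plus strand), a binding protein cleaved by the protease PAPP-A, had 19.1 to 84.9 CPM with Kir2.1 (median 38.0) and 3.03 to 46.7 CPM with the mutant (median 24.2). Its log2 fold change of 0.88 ± 0.39 was as large as that of Socs2 with a wider error, and it did not pass (edgeR adjusted p = 0.333). Igfbp3 (ENSMUSG00000020427, chromosome 11, 7206086 to 7213923, minus strand), the main carrier of IGF in serum, averaged 5.43 ± 2.95 CPM with Kir2.1 and 5.36 ± 5.18 CPM with the mutant (0.03 ± 0.71, edgeR adjusted p = 0.999). Igfbp2 (ENSMUSG00000039323, chromosome 1, 72824503 to 72852474, plus strand) was at 0 in 8 of 10 Kir2.1 and 6 of 9 mutant libraries, and had 396 counts in all 79 libraries together, so a difference was not detectable at this depth.

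**Figure D2:**
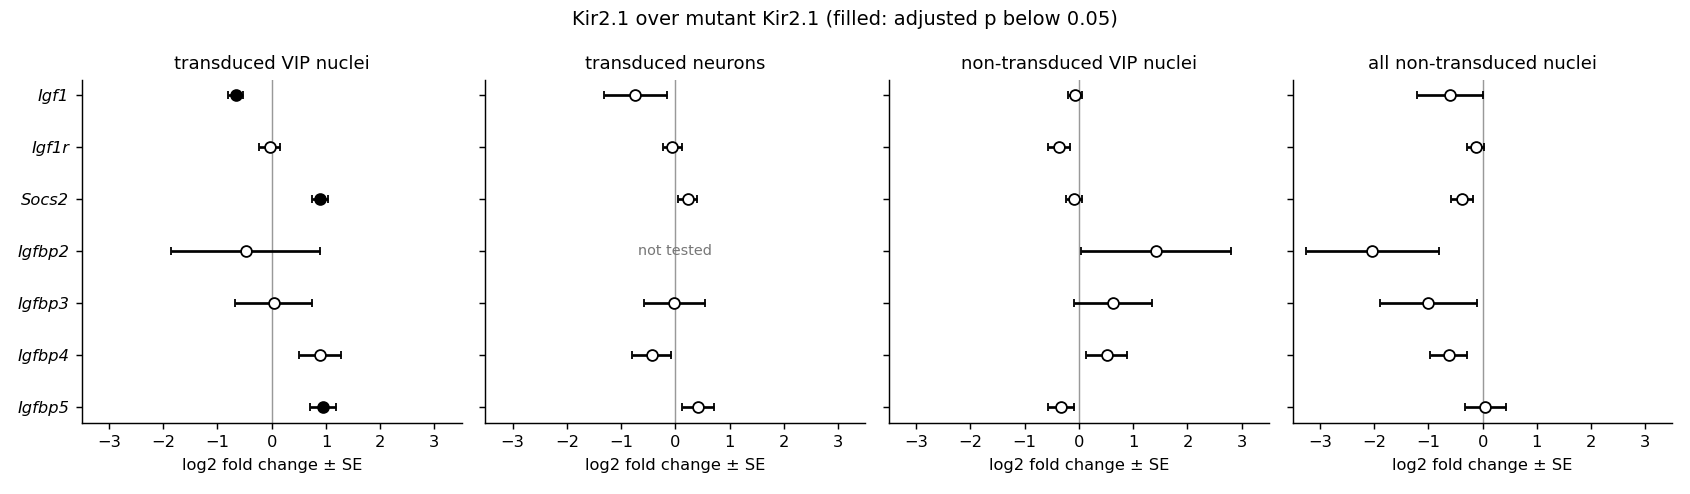
Log2 fold change of Kir2.1 over mutant Kir2.1 with its SE for the 7 genes in 4 kinds of nuclei; filled circles passed at an adjusted p below 0.05 (edgeR). Filled circles appear in transduced VIP nuclei alone, for Igf1 (-0.66), Socs2 (0.89) and Igfbp5 (0.95).

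Other markers moved with this contrast. The summed level of the 10 VIP markers was 7558 to 13344 CPM with Kir2.1 and 18578 to 20303 CPM with the mutant. Each marker was detected in some library of each group. Of these markers Vip, Cck, Adarb2 and Crh fell and the other 6 did not pass, and Dlx1 fell among 8 markers of GABAergic neurons. The 10 excitatory markers summed to 893 to 1480 CPM with Kir2.1 and 524 to 673 CPM with the mutant, each detected in some library of each group. Camk2a rose (985 ± 166 CPM with Kir2.1, 538 ± 48.1 CPM with the mutant) and the other 9 did not pass, Slc17a7 among them (log2 fold change 0.75 ± 0.58, edgeR adjusted p = 0.747). Among the 10 astrocyte markers Slc4a4, a sodium bicarbonate cotransporter, fell (75.0 ± 29.6 CPM with Kir2.1, 144 ± 30.3 CPM with the mutant, log2 fold change -0.92 ± 0.19, edgeR adjusted p = 0.00336) and the other 9 did not pass. All 10 summed to 358 to 557 CPM with Kir2.1 and 415 to 607 CPM with the mutant, each detected in some library of each group. The 10 markers of microglia, a cell type that can also express Igf1, summed to 121 to 291 CPM with Kir2.1 and 143 to 255 CPM with the mutant. Each was detected in some library of each group, and none of them passed (edgeR, 10 tested). No tested marker passed among those of other interneurons, oligodendrocytes, their precursors, or vascular cells and fibroblasts (9, 10, 5 and 9 tested). The part of these shifts in the change of Igf1 was not tested.

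**Figure D3:**
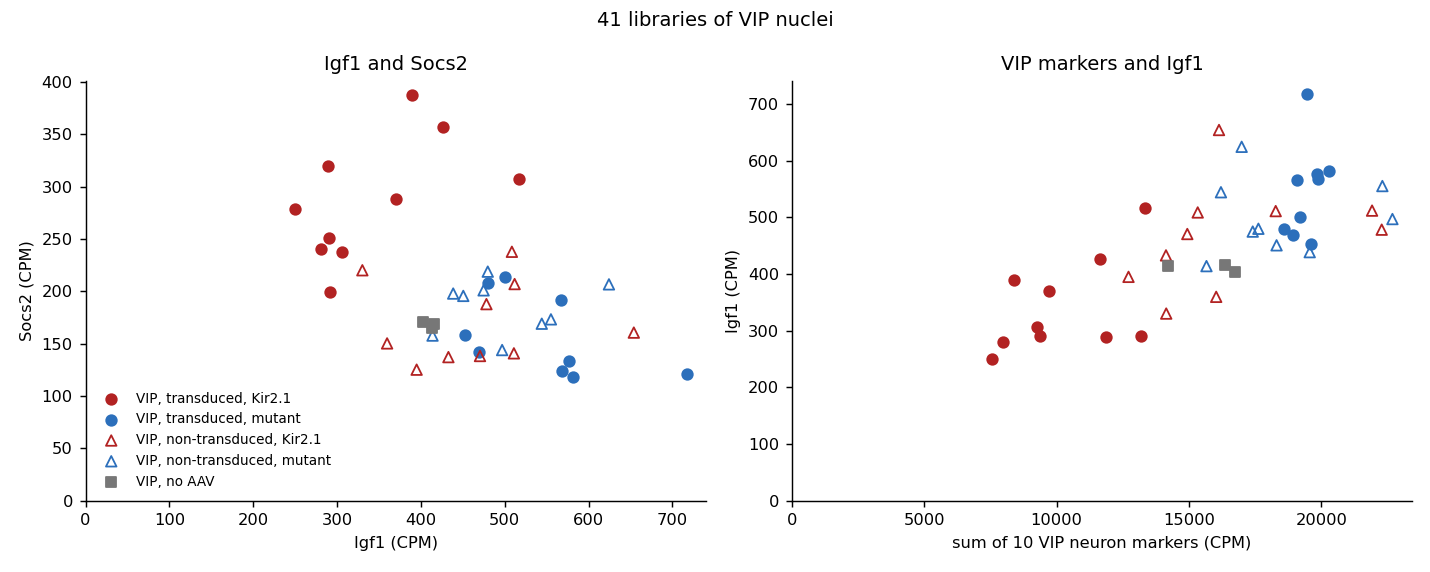
Left, Socs2 against Igf1 and right, Igf1 against the sum of 10 VIP neuron markers (all in CPM) in the 41 libraries of VIP nuclei; circles are transduced, triangles non-transduced and squares no AAV, with Kir2.1 in red and the mutant in blue. Kir2.1-transduced libraries sit at high Socs2 (199.6 to 387 CPM) and at the low end of the marker sum (7558 to 13344 CPM).

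In transduced neurons 0 of 6 tested members passed between Kir2.1 and the mutant (edgeR, 0 at an unadjusted p below 0.05 and 0 with DESeq2), where 5.63% of all genes did. At that share, 0 of 6 does not set the members apart from genes at large. Igf1 had a log2 fold change of -0.74 ± 0.58 (edgeR adjusted p = 0.558) at 0.379 to 15.1 CPM with Kir2.1 and 1.20 to 18.7 CPM with the mutant. Igfbp5 ran from 13.2 to 27.6 CPM with Kir2.1 and from 5.08 to 28.2 CPM with the mutant (0.42 ± 0.30, edgeR adjusted p = 0.489). Socs2 averaged 51.2 ± 10.98 CPM with Kir2.1 and 44.2 ± 4.72 CPM with the mutant, in ranges that overlapped (0.23 ± 0.17, edgeR adjusted p = 0.541). For Igf1r the log2 fold change was -0.05 ± 0.17 (edgeR adjusted p = 0.913), at the highest receptor levels of all groups. Igfbp4 had -0.44 ± 0.36 (edgeR adjusted p = 0.589), the opposite sign to transduced VIP nuclei.

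Nuclei sorted as non-transduced gave no call between vectors. In non-transduced VIP nuclei 0 of 7 members passed between vectors (edgeR, 0 at an unadjusted p below 0.05 and 0 with DESeq2), where 0.0% of all genes did (edgeR, 1843 at an unadjusted p below 0.05, 14 with DESeq2). Igf1 averaged 465 ± 92.7 CPM with Kir2.1 and 497 ± 66.2 CPM with the mutant (log2 fold change -0.07 ± 0.13), and Socs2 171 ± 39.7 CPM with Kir2.1 and 185 ± 24.9 CPM with the mutant (-0.09 ± 0.15). Igfbp5, at -0.33 ± 0.24, had the opposite sign to transduced VIP nuclei. In all non-transduced nuclei 0 of 7 members passed likewise (edgeR, 0 at an unadjusted p below 0.05 and 0 with DESeq2), where 0.0% of genes did (edgeR, 1289 at an unadjusted p below 0.05, 2 with DESeq2). The Kir2.1 libraries of that contrast include the 2 high in Kcnj2, and without both again 0 of 7 members passed (edgeR). The log2 fold change was then -0.61 ± 0.66 for Igf1 and -0.49 ± 0.21 for Socs2. The sign for Igf1 was not stable: without each library in turn, of the full set, its value ran from -0.82 to 0.37. Its median was 7.87 CPM with Kir2.1 and 5.23 CPM with the mutant, whose library 1 had 56.3 CPM, next to 11.1 CPM.

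Within the Kir2.1 vector, transduced VIP nuclei could be set against non-transduced VIP nuclei, and the transduced libraries are those of the contrast with the mutant. Of the 7 members, 2 passed, where 0.769% of all genes did, and both rose. Socs2 had 199.6 to 387 CPM in transduced nuclei, against 125 to 238 CPM in non-transduced ones, with 9 of 10 transduced libraries above all of these, and was 1.70-fold higher (log2 fold change 0.76 ± 0.14 SE, edgeR adjusted p = 0.00116). Igfbp5 had 38.8 to 107 CPM in transduced nuclei, against 17.9 to 49.4 CPM in non-transduced ones, with 8 of 10 above all of these, and was 2.09-fold higher (1.06 ± 0.23, edgeR adjusted p = 0.00961). In the 10 pairs of libraries with the same number, both genes were higher in the transduced library each time. Igf1 was lower in 8 of 10 such pairs, with a log2 fold change of -0.43 ± 0.13 that did not pass (edgeR adjusted p = 0.0988). It did pass with DESeq2 (adjusted p = 0.0273), with the 4 outlying libraries left out (edgeR adjusted p = 0.038) and without Kir2.1-transduced library 6 (0.0297).

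With the mutant vector, transduced and non-transduced VIP nuclei showed no member past the threshold (edgeR, 0 at an unadjusted p below 0.05 and 0 with DESeq2; 0.00943% of all genes passed). The log2 fold changes were 0.16 ± 0.14 for Igf1, -0.22 ± 0.15 for Socs2 and -0.22 ± 0.24 for Igfbp5. In the 9 same-numbered pairs with the mutant, Igf1 was higher in the transduced library in 8 (median log2 difference 0.10). Socs2 was higher there in 4 of 9 and Igfbp5 in 5 of 9. The difference in Igf1 between the vectors in transduced nuclei thus also holds this shift with the mutant. The difference between the vectors in the effect of transduction was itself tested. Socs2 passed with a log2 difference of 0.98 ± 0.21 (edgeR adjusted p = 0.0199), where 0.401% of all genes did. For Igfbp5 it was 1.28 ± 0.34 (edgeR adjusted p = 0.0607; 0.0395 with DESeq2 and 0.0482 with sex by RNA as a covariate) and for Igf1 -0.59 ± 0.19 (edgeR adjusted p = 0.186).

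Injection without transduction left the members with no call. AAV-injected against uninjected mice gave 0 of 7 members in non-transduced VIP nuclei (edgeR, 0 at an unadjusted p below 0.05 and 0 with DESeq2), where 0.00943% of all genes passed. In all nuclei it also gave 0 of 7 (edgeR, 1 at an unadjusted p below 0.05, Igfbp4, and 0 with DESeq2), where 0.211% of all genes passed. The mice without AAV were all male, so injection and sex are partly confounded here. With sex by RNA as a covariate 0 of 7 members passed in either population (edgeR), and likewise 0 of 7 in all nuclei without the 2 libraries high in Kcnj2. In injected mice the Igf1 level of non-transduced VIP nuclei ran from 330.1 to 654 CPM, against 403, 413 and 415 CPM without AAV, and its log2 fold change with AAV was 0.21 ± 0.18 (edgeR adjusted p = 0.714). With 3 libraries without AAV, these contrasts had wide errors for Igfbp4, at -0.91 ± 0.48 and -0.91 ± 0.42.

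Levels of different genes can be set side by side only per length, here per kilobase of annotated exon. Counting settings are not given, so whether reads in introns were counted is not known, and the order of genes holds for exon counting only. Igf1r spans 280842 bases with 16791 in exons, and Igf1 78778 with 9904. In Kir2.1-transduced VIP nuclei Igf1 was at 34.4, Socs2 at 30.1, Igfbp5 at 11.4, Igfbp4 at 10.1 and Igf1r at 7.35 CPM per kilobase. In mutant-transduced VIP nuclei Igf1 was at 55.1, Socs2 at 16.4, Igf1r at 7.61, Igfbp5 at 5.95 and Igfbp4 at 5.50. Igf1 led in both, with Socs2 close behind under Kir2.1. In transduced neurons Igf1r was the most abundant of the 7, at 13.4 with Kir2.1 and 14.1 with the mutant, and Igf1 was at 0.516 CPM per kilobase with Kir2.1 and 0.872 with the mutant.

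Around the members, 65 other genes of IGF, insulin and growth hormone signalling were read from the same fits. In transduced VIP nuclei 58 were tested between Kir2.1 and the mutant: 1 rose, 2 fell and 55 did not pass, where 1.39% of all genes passed, with a median log2 fold change of -0.07 (0.04 over all genes). Pik3ip1, an inhibitor of PI3 kinase, averaged 101 ± 32.7 CPM with Kir2.1 and 33.4 ± 14.7 CPM with the mutant (log2 fold change 1.61 ± 0.27, edgeR adjusted p = 0.000104). Socs5, another suppressor of cytokine signalling, averaged 38.1 ± 13.8 CPM with Kir2.1 and 80.3 ± 16.3 CPM with the mutant (-1.06 ± 0.19, edgeR adjusted p = 0.000413), and so fell where Socs2 rose. Shc3, a neuronal adaptor of receptor tyrosine kinases, averaged 44.1 ± 15.9 CPM with Kir2.1 and 87.6 ± 35.8 CPM with the mutant (-0.97 ± 0.23, edgeR adjusted p = 0.0146).

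In transduced neurons 52 were tested: 2 rose, 3 fell and 47 did not pass, where 5.63% of all genes passed, with a median of -0.12 (0.04 over all genes). Pik3ip1 rose (1.12 ± 0.22, edgeR adjusted p = 0.00233) and Shc3 fell (-1.66 ± 0.30, edgeR adjusted p = 0.000723) there too. Igfbp6, a binding protein that prefers IGF-2, rose to 51.1 ± 29.2 CPM with Kir2.1, against 20.9 ± 9.60 CPM with the mutant (1.32 ± 0.34, edgeR adjusted p = 0.0176). Pappa, which encodes the protease PAPP-A, averaged 0.810 ± 0.783 CPM with Kir2.1 and 5.10 ± 3.07 CPM with the mutant and fell (-2.61 ± 0.73, edgeR adjusted p = 0.0313) at these low levels. Within the Kir2.1 vector, transduced against non-transduced VIP nuclei gave Pik3ip1 higher (1.07 ± 0.26, edgeR adjusted p = 0.0243) and Socs5 lower (-0.79 ± 0.19, edgeR adjusted p = 0.0243) and the other 56 not past the threshold, where 0.769% of all genes passed. Between vectors, 0 of 58 passed in non-transduced VIP nuclei (edgeR, 5 at an unadjusted p below 0.05, 0 with DESeq2) and 0 of 58 in all non-transduced nuclei (edgeR, 1 at an unadjusted p below 0.05, 0 with DESeq2). Stc1, an inhibitor of PAPP-A, passed for the difference between vectors in the effect of transduction (edgeR adjusted p = 0.0404), on levels of 0 in every Kir2.1 non-transduced and mutant-transduced VIP library and at most 5.002 CPM in the other 2 groups, so no fold is given.

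**Figure D4:**
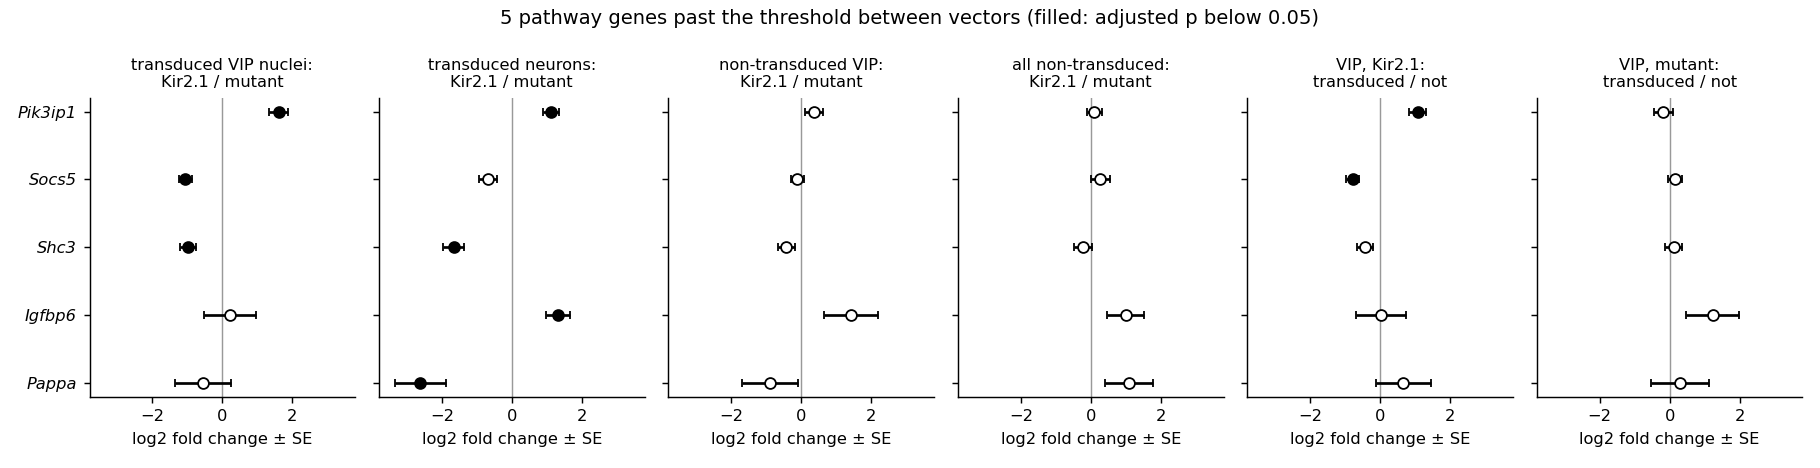
Log2 fold change with its SE of 5 other pathway genes that passed between vectors, in 6 comparisons; filled circles passed at an adjusted p below 0.05 (edgeR). Pik3ip1 rises and Shc3 falls with Kir2.1 in both transduced VIP nuclei and transduced neurons.

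Between populations the pathway list passed about as often as genes at large. Of 60 genes tested in non-transduced nuclei, 10 were higher and 10 lower in VIP nuclei than in all nuclei, where 27.4% of all genes passed, at a median log2 fold change of 0.01 (-0.05 over all genes). The adaptor Grb10, which restrains insulin and IGF-1 receptor signals, was 3.13-fold higher (1.65 ± 0.14), Socs5 2.91-fold higher (1.54 ± 0.18), the transcription factor Stat5b 1.85-fold higher (0.89 ± 0.20) and Igf2r, which takes up IGF-2 for degradation, 1.93-fold higher (0.95 ± 0.22). The adaptors Grb14 and Gab1 were 3.29-fold (-1.72 ± 0.21) and 10.0-fold (-3.33 ± 0.48) lower. The largest edgeR adjusted p among these 6 was 0.000663. Grb10, Socs5 and Stat5b were also higher, and Grb14 lower, in VIP nuclei than in transduced neurons with either vector, where 11 of 56 genes passed with Kir2.1 (18.9% of all genes) and 9 of 56 with the mutant (17.9% of all genes).

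Genes whose pattern was most like that of Igf1 were ranked by Pearson's r of log2(CPM + 1), as a description. Over all 79 libraries and 13522 genes with a mean of at least 5 CPM, the first 5 were Igf1os (r = 0.967), Grpr (0.961), Chat (0.957), Slc44a5 (0.955) and Synpr (0.953). Those libraries fall into VIP and other nuclei, so these values describe that gap. Igf1os also overlaps Igf1, and reads from their shared stretch cannot be told apart. The part of such reads in its r was not tested. Among the 41 VIP libraries and 13115 genes, the first 5 were Slc2a13 (0.809), Plppr4 (0.761), Nkain3 (0.760), Hdac9 (0.755) and Flrt2 (0.745). In the same 41 libraries Socs2 had r = -0.49 and Igfbp5 r = -0.39 with Igf1, whereas over all 79 they had 0.879 and 0.769. The points differ in vector, sort and library depth. Of the 5 VIP groups, Kir2.1-transduced nuclei had the lowest mean Igf1 (341 CPM) and the highest mean Socs2 (287 CPM) and Igfbp5 (68.6 CPM). The values within VIP nuclei, the first 5 genes included, thus also hold the differences between these groups.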

How the data were processed

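RNA counts of sorted nuclei came from 1 table of whole-number counts, deposited by the authors without normalization, with 0 columns left unused. Per the submitters' processing notes, cutadapt 1.18, STAR 2.5.3a, HOMER 4.9.1 and mm10 were used; annotation and counting settings are not given in the sources used here. Libraries had 17 PCR cycles per the labels' protocols and no molecular identifiers. Errors were taken from the spread between replicate libraries, which includes counting error, and the share of counting error was not tested.

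Identifiers were matched to GENCODE vM21 of GRCm38 (55154 matched, 181 not). Genes were tested with edgeR 4.0.16 in R 4.3.3 (TMM, quasi-likelihood F test, two-sided) after filterByExpr (minimum count 10, minimum total 15), with Benjamini-Hochberg adjustment over all genes tested and a threshold of 0.05. One fit each covered VIP nuclei (41 libraries), transduced neurons (16), all nuclei (22), transduced nuclei (35) and non-transduced nuclei (44). The SE is the log2 fold change divided by the square root of F. Levels are CPM under 1 TMM scaling of all 79 libraries, mean ± SD. DESeq2 1.42.0 was an alternative. On simulated counts of 20275 genes modelled on the 41 VIP libraries, the test between vectors in transduced nuclei recovered 10% of 1.5-fold, 44% of 2-fold and 76% of 4-fold changes. Modelled on transduced neurons (15399 genes) it recovered 4%, 44% and 74%, and on VIP against all nuclei (21864 genes) 24%, 56% and 88%. Each simulation changed 50 genes per fold, none of them at low counts, and 9, 3 and 0 unchanged genes were called in that order.

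Libraries of a group are numbered as biological replicates, but the labels do not link them to animals, and p-values therefore cover library-to-library spread, which may be technical. Named were all 7 members, at most 6 pathway genes a comparison by smallest adjusted p, and the 5 genes most like Igf1. In transduced neurons 1 further pathway gene within that limit is counted but not reported here. Members and lists were chosen with earlier results of these data known. The protocol names harvest in the dark or after 1 h of light; the libraries' own label, 10 days dark housed, was followed. Fits with sex by RNA, of libraries with agreeing sex, and without 2 libraries high in Kcnj2 were added after seeing the data.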

Additional observations from a re-analysis of the deposited data

Results flagged for a closer look

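In 12 of 56 sets of 1 gene in 1 group of up to 10 libraries, a single library stood far from the others by Dixon's criterion. Each was the highest of its group. Chance meets the criterion in about 1 in 20 groups only where values are normally distributed. These were CPM that included low counts, with Igfbp2 at 0 in 8 of 10 Kir2.1-transduced VIP libraries. The 12 of 56 can therefore not be set against that rate. Igf1 in all nuclei of the mutant vector was 56.3 CPM in library 1, next to 11.1 CPM. The same library was highest for Igfbp5, at 38.7 CPM next to 17.9 CPM, and its VIP marker sum was 1702 CPM, where the other 8 had 402 to 789 CPM. Mutant-transduced VIP library 6 was highest for Igf1, at 717 CPM next to 582 CPM, and for Igfbp5, at 63.7 CPM next to 42.6 CPM. Leaving it out gave Igf1 a log2 fold change of -0.62 and Igfbp5 one of 1.09 between Kir2.1 and the mutant, both past the threshold (edgeR). Igfbp5 in mutant non-transduced VIP nuclei was 82.2 CPM in library 8, next to 51.4 CPM. Igf1 in Kir2.1-transduced neurons was 15.1 CPM in library 10, next to 5.61 CPM.

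The other 6 such values lay at 28.2 CPM or less. Igfbp2 was 2.31 CPM in Kir2.1 non-transduced VIP library 7, 2.54 in Kir2.1-transduced VIP library 6, 0.672 in mutant non-transduced VIP library 7 and 3.33 in mutant-transduced VIP library 1. Igfbp3 was 28.2 CPM in Kir2.1 non-transduced VIP library 10 and 11.3 CPM in Kir2.1-transduced neuron library 5.

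The effect of transduction on Socs2 differed between Kir2.1 and the mutant in VIP nuclei, by 0.98 on the log2 scale (edgeR adjusted p = 0.0199). Socs2 was higher in the transduced library in 10 of 10 same-numbered pairs with Kir2.1 and in 4 of 9 with the mutant.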

How the results depend on the processing

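No member changed direction under any alternative where it had passed. Between Kir2.1 and the mutant in transduced VIP nuclei, 3 members passed, 2 to 3 without each library in turn, and 1 (Socs2) both in 1 fit of all 79 libraries and in the libraries with agreeing sex. For transduced against non-transduced VIP nuclei with Kir2.1, 2 members passed, 2 to 3 without each library, and 0 with agreeing sex (edgeR; Igfbp5 adjusted p = 0.114, Socs2 0.0611), where the groups were smaller. For the difference between vectors in the effect of transduction, 1 member passed, 1 to 2 without each library, 2 with no filter on low counts, with sex by RNA as a covariate and with DESeq2 (Igfbp5 added each time), and 0 with agreeing sex (Socs2 1.04, edgeR adjusted p = 0.472). The added member appeared without Kir2.1-transduced library 1 or 9, mutant non-transduced library 1 or mutant-transduced library 6. Between vectors in non-transduced nuclei and in neurons, without each library, the member count stayed at 0 (edgeR), as it did in all non-transduced nuclei without both libraries high in Kcnj2. Leaving out libraries was not planned for the contrasts of VIP with other nuclei.

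In VIP nuclei against all nuclei, Igf1r was lost without the filter (edgeR adjusted p = 0.0656), Igfbp2 under the replicate block (0.172) and with agreeing sex (0.127), and Igfbp4 without the filter (0.0501) and under the block (0.0547). With agreeing sex, VIP nuclei against transduced neurons lost Igfbp5 with the mutant (0.201) and Igfbp4 with Kir2.1 (0.0974).

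Counts over all genes moved more. In transduced VIP nuclei 294 genes passed between vectors, against 563 in 1 fit of all libraries and 60 with agreeing sex. In neurons 898 passed, against 1388 with DESeq2, 505 in 1 fit of all libraries, 526 under the block and 193 with agreeing sex. With transduction by Kir2.1 163 passed, against 241 with DESeq2, 105 with only the compared groups and 76 with agreeing sex. Another of the alternative settings gave 479. For the difference in the effect of transduction 85 passed, against 719 without the filter, 392 in 1 fit, 35 with only the compared groups and 3 with agreeing sex. For the difference between populations 58 passed, against 274 without the filter, 136 in 1 fit, 103 with DESeq2 and 7 with agreeing sex. With AAV against none, 2 passed in VIP nuclei and 45 in all nuclei, against 214 and 289 without the filter and 72 and 382 with DESeq2. The cause was not tested.

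The replicate block changed no member call in the other comparisons. Same-numbered libraries did not deviate together throughout: between transduced and non-transduced VIP nuclei, 5 of 10 pairs correlated over 0.1 with Kir2.1, and 6 of 10 correlated best with their own number. With the mutant 5 of 9 correlated over 0.1 and 6 of 9 best with their own number, at r of -0.11 to 0.588, where other pairs had a median of 0.00340. CPM of the raw library total moved 1 of 70 group means by 1 SD or more. Depth limits Igfbp2 and Igfbp3, and Igf1 outside VIP nuclei.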
